A study of Mus musculus with 2 samples.

Results

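The genes described are 10 isoforms of glycolytic enzymes, taken as a list of named genes: the phosphofructokinases Pfkl, Pfkm and Pfkp, the aldolase Aldoa, the triosephosphate isomerase Tpi1, the phosphoglycerate kinase Pgk1, the enolases Eno1 and Eno3, and the lactate dehydrogenases Ldha and Ldhb. All 10 were found among the 16174 genes listed in the series by matching the Entrez identifiers of the files to mouse symbols. RNA was sequenced from brown adipose tissue of female C57BL/6 mice, 45 weeks old and kept on chow, with 1 library per genotype. The control library is labelled D3Bfl/fl, that is, it carries floxed D3B alleles and no Cre is named. The knockout library is labelled D3Bfl/fl-UCP1-Cre+/-, so it carries the floxed alleles and 1 Cre transgene driven by the promoter of Ucp1, which is active in brown adipocytes. By that design other cells of the tissue would keep D3B, read here as the DNA methyltransferase gene Dnmt3b; its level by cell type was not measured. The labels do not say how many mice went into a library.

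Glycolysis splits glucose into pyruvate in the cytosol, and lactate dehydrogenase interconverts pyruvate and lactate. Most steps are served by several genes whose products differ in tissue distribution and regulation: phosphofructokinase, the committed step, has liver (Pfkl), muscle (Pfkm) and platelet (Pfkp) types, and enolase and lactate dehydrogenase also have muscle-enriched and other forms. Brown fat takes up much glucose when it is activated, and its glycolysis supplies pyruvate to mitochondria, glycerol-3-phosphate for triglyceride and acetyl units for fatty acid synthesis.

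The libraries held 9666528 expected counts in the control and 10068359 in the knockout. An expected count need not be whole, since RSEM shares out a read with more than one possible origin. The control was run on lane 2 and the knockout on lane 1, so lane, Cre and loss of D3B cannot be told apart. With no replicates there is no test between genotypes and no p-value. Intervals after a ratio are 95% counting intervals and cover counting error only. The targeted gene Dnmt3b had 15 counts in the control library and 7 in the other, or 0.39 and 0.18 FPKM (fragments per kilobase of transcript, scaled to library size). The interval of its ratio, 0.16 to 1.20, included 1, so these counts neither bear out nor contradict the label. Paired values below are given control first. The brown fat marker Ucp1 was at 4987 FPKM (control) and 4271 FPKM (knockout).

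Upstream sequences are shown for 5 of the genes: Ldha and Ldhb, whose levels differed between the libraries in opposite directions, Aldoa and Eno1, which had the largest ratios, and Pgk1, which hardly differed. Each is the 250 bases before an annotated start, from the RefSeq promoter table of build GRCm38.p6, read 5′ to 3′ on the gene's strand. Ldha, Aldoa and Eno1 have further annotated starts, and a single window of each is shown. No deposited transcript of Eno1 could be placed within 50 bases of the start shown. The windows are chr7:46845554-46845803 (plus strand) for Ldha, chr6:142507958-142508207 (minus) for Ldhb, chrX:106186850-106187099 (plus) for Pgk1, chr7:126799255-126799504 (minus) for Aldoa and chr4:150236947-150237196 (plus) for Eno1. Capitals mark the letters ACGTG or GCGTG on either strand, the core that the hypoxia-inducible factors HIF1 and HIF2 are known to recognise.
Ldha: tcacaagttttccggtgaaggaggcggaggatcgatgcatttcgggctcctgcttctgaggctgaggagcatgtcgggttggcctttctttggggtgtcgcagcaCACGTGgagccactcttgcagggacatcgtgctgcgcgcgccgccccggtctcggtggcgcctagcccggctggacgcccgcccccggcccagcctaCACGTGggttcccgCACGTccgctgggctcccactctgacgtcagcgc
Ldhb: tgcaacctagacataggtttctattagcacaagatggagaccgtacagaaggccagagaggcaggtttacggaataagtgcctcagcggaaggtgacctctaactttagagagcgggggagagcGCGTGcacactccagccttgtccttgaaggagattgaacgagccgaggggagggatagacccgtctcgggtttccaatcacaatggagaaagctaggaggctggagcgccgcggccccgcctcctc
Pgk1: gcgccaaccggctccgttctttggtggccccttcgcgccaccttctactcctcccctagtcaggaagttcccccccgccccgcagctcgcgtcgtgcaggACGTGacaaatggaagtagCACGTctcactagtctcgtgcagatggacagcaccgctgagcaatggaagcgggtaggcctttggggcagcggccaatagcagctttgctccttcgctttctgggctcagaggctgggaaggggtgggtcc
Aldoa: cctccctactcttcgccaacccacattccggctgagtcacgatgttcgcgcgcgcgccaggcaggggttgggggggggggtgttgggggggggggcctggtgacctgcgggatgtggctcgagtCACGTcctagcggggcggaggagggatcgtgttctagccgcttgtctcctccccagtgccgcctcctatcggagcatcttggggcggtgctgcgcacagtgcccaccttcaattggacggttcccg
Eno1: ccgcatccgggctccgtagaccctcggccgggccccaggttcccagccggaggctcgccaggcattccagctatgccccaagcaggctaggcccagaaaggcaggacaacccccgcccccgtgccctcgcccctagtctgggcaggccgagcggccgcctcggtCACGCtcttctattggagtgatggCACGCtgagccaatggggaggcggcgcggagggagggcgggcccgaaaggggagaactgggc

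In the Ldha window ACGTG begins 34, 47, 48, 144 and 145 bases before the start, counted on the gene's strand from the leftmost base of each match. The pairs at 47 and 48 and at 144 and 145 are both strands of the palindrome CACGTG, the E-box core. The Pgk1 window holds ACGTG at 131 and 150 bases and the Aldoa window at 126 bases, while the Eno1 window has GCGTG at 62 and 86 bases and the Ldhb window GCGTG at 126 bases. Across the 18 annotated windows of the 10 genes, 6 held ACGTG (in Ldha, Pgk1, Aldoa and Pfkm), 10 held GCGTG and 15 held one or the other, while no window of Tpi1 held either. Of 32851 windows of this length over all genes, 16.6% held ACGTG, 28.2% GCGTG, 38.6% either and 6.02% CACGTG. Several windows of a gene overlap, so they are not independent. Windows of a gene also differed: the Ldha window not shown held GCGTG and no ACGTG, and an Aldoa window not shown held neither. The genes with ACGTG did not share a direction: Aldoa and Ldha were higher in the knockout library, Pgk1 nearly equal and Pfkm lower. A match is a description of the letters and does not show that a factor binds.

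Among the isoforms, transcript levels spanned a wide range, and their order was the same in both libraries except that Pfkm and Pfkp exchanged places, as did Ldhb and Pgk1. Aldoa, which splits the phosphorylated hexose into a pair of trioses, was the most abundant, at 2461 FPKM (control) and 3182 FPKM (knockout). It ranked 26th and 11th of all listed genes. Eno1, the widely expressed enolase, followed at 2038 and 2610 FPKM, ranks 39 and 20.

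**Figure D1:**
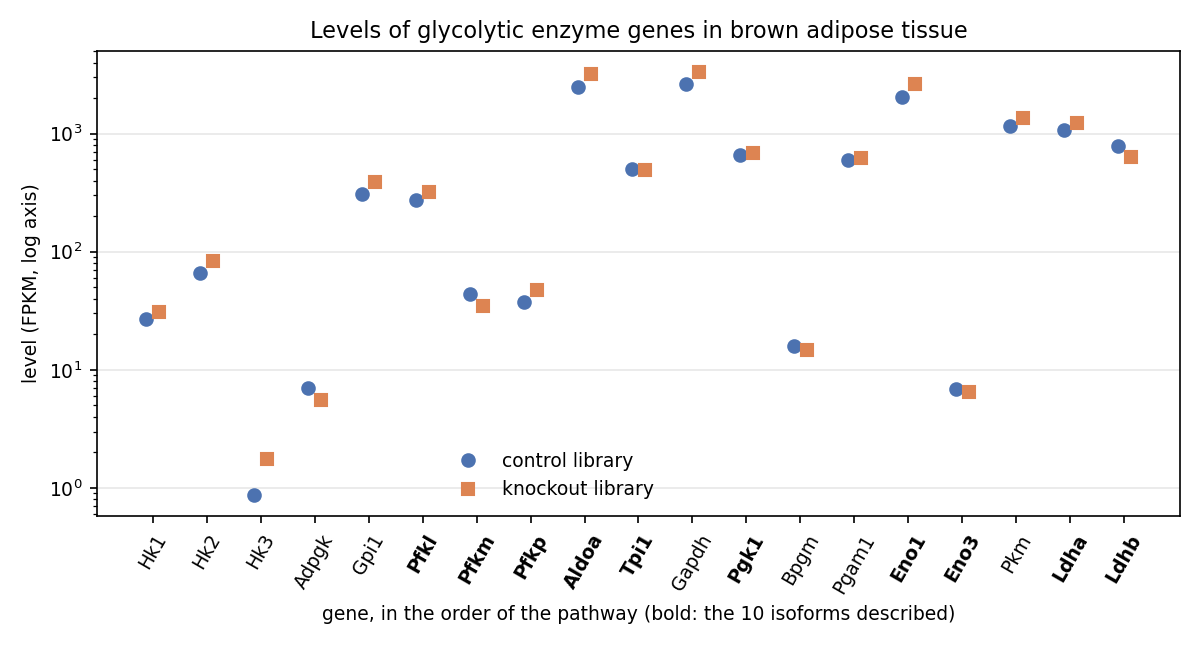
Levels of glycolytic enzyme genes in FPKM on a log axis, in the order of the pathway, with circles for the control library and squares for the knockout library and 1 library each. Gapdh, Aldoa and Eno1 are the highest points in both libraries, while Eno3 is at 6.88 and 6.54 FPKM.

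Ldha was at 1084 and 1221 FPKM, Ldhb at 779 and 636 FPKM, Pgk1 at 661 and 683 FPKM and Tpi1 at 497 and 489 FPKM. The liver-type Pfkl was at 272 and 320 FPKM, far above Pfkm with 43.5 and 34.5 FPKM and Pfkp with 37.8 and 47.8 FPKM. The muscle-enriched Eno3 was lowest, at 6.88 and 6.54 FPKM. The 10 genes together held 1.32% of all counts in the control library and 1.55% in the other. Summed over the isoforms compared, the 11 steps from hexokinase to lactate dehydrogenase had the same order of levels in both libraries. Glyceraldehyde-3-phosphate dehydrogenase was highest with 2611 and 3330 FPKM, and phosphofructokinase was ninth with 354 and 403 FPKM, above the isomerase Gpi1 and hexokinase.

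Between the libraries, 6 of the 10 isoforms were higher in the knockout and 4 lower. After both libraries were set to the same FPKM total, 8 were higher and 2 lower. The counting interval of the ratio lay above 1 for 6 isoforms and below 1 for Pfkm and Ldhb, and it included 1 for Tpi1 and Eno3. Over all tested genes it lay above 1 for 18.2% and below 1 for 22.4%. Abundant genes have narrow intervals, so small differences are enough to leave 1 outside. None was past 1.5-fold in either direction on the log2(FPKM + 1) scale, where 4.63% of the 11746 tested genes passed this limit upward and 3.69% downward. Genes entered this comparison from 1 FPKM upward in at least one of the libraries, and all 10 did. With a smaller limit of 0.32 on the log2 scale, Aldoa, Eno1 and Pfkp passed upward, against 12.2% of tested genes, and Pfkm passed downward, against 13.4%. The median log2 ratio of the 10 was 0.11, beside -0.03 over all tested genes, of which 45.9% lay above 0 (58.1% with equal FPKM totals). The shares of all genes past the same limits show that differences of this size were common, as does the plot of all tested genes. Upward differences were rarer among abundant genes: of the 832 genes averaging 100 FPKM or more, 6.61% passed the smaller limit upward and 12.4% downward. Of the 7 isoforms in that range, 2 passed it upward (Aldoa and Eno1) and 0 downward, and their median was 0.17 beside -0.10 for all 832. Their counting interval lay above 1 for 5 of the 7, against 21.9% of the 832 genes, and below 1 for 1, against 55.8%. This range was chosen after the levels had been seen. Its medians, shares and intervals are on deposited FPKM, whose total was lower in the knockout library. They depend on scaling and were not computed with equal FPKM totals.

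**Figure D2:**
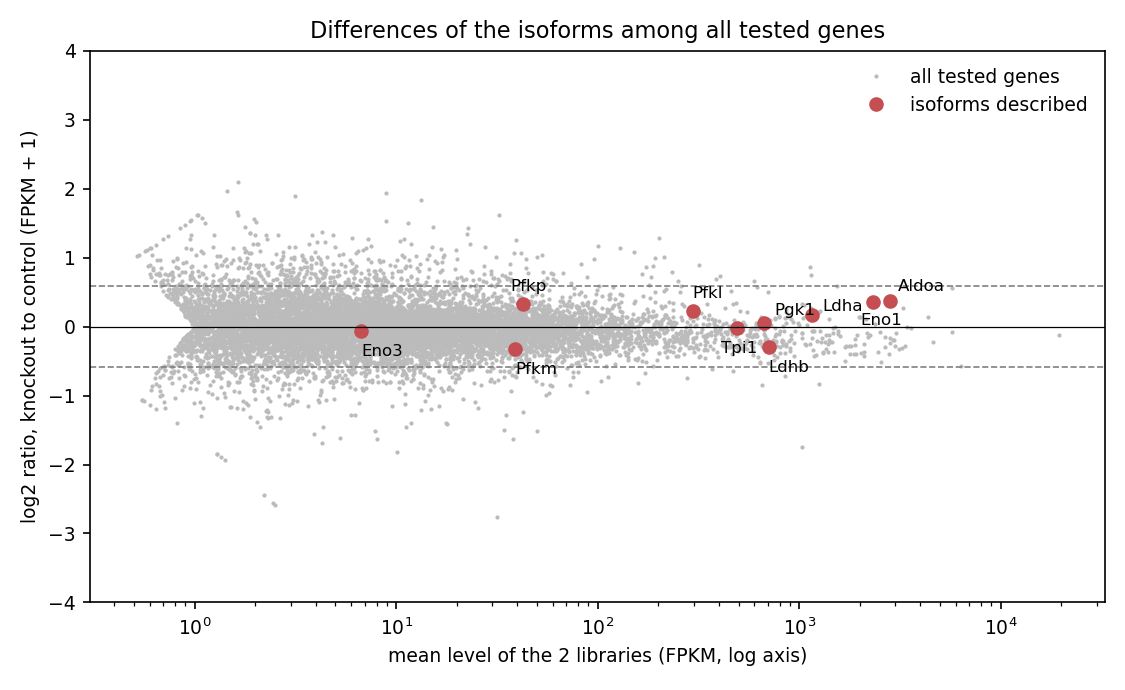
Each grey point is 1 of the 11746 tested genes, with its mean FPKM in both libraries (log axis) against the log2 ratio of FPKM + 1, knockout to control; red points are the 10 isoforms and dashed lines mark 1.5-fold. All 10 lie between the lines, with Aldoa at 0.37 and Pfkm at -0.33.

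The phosphofructokinase isoforms stood in different proportions in the libraries. Pfkl, the main form here, had 9738 and 11922 counts and a ratio of 1.18 (1.14 to 1.21). Pfkm had 1187 and 989 counts and a ratio of 0.794 (0.729 to 0.864), and Pfkp had 1441 and 1898 counts and a ratio of 1.27 (1.18 to 1.36). The muscle type was thus lower in the knockout library while the other two types were higher. As a share of the summed FPKM of the 3 genes, Pfkl was 77.0% (76.2 to 77.8) in the control and 79.6% (78.9 to 80.2) in the knockout. The share of Pfkm was 12.3% (11.7 to 13.0) and 8.57% (8.07 to 9.09), and that of Pfkp 10.7% (10.2 to 11.2) and 11.9% (11.4 to 12.4). Pfkm was above Pfkp in the control library and below it in the knockout.

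The ratio of 2 isoforms in 1 library against the same ratio in the other does not depend on how the libraries are scaled. For Pfkm to Pfkl this ratio of ratios, from the counts, was 0.681 (0.622 to 0.744), and for Pfkp to Pfkm 1.58 (1.42 to 1.76). For Pfkp to Pfkl it was 1.08 (0.999 to 1.16), an interval that includes 1. The gene-level values of Pfkm join 3 transcripts, whose mean length was 2870 bases in the control and 2894 in the knockout library, a small difference in their estimated mixture.

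Aldoa had the largest ratio of the 10. Its counts were 34953 in the control and 47002 in the knockout, and its FPKM ratio was 1.29 (1.28 to 1.31). Of all tested genes 89.8% had a lower log2 ratio. The brain aldolase Aldoc stood far lower, with 10 and 4 counts, or 0.63 and 0.24 FPKM.

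Tpi1 and Pgk1 differed little. The isomerase Tpi1, which interconverts the triose phosphates, had 7456 and 7622 counts and a ratio of 0.982 (0.951 to 1.01). Pgk1, which makes the first ATP of the pathway, had 11287 and 12129 counts and a ratio of 1.03 (1.01 to 1.06). Its testis-specific homologue Pgk2 was listed in neither library and was taken as 0. An observed count of 0 still allows an expected count of up to about 3, or 0.310 CPM for the control and 0.298 CPM for the knockout. The sign of Tpi1 depended on scaling: its log2 ratio was -0.03 on deposited FPKM and 0.06 after both libraries were set to the same FPKM total.

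Enolase came almost wholly from Eno1. Its counts were 35096 and 46771, and its ratio was 1.28 (1.26 to 1.30). The deposited counts of Eno1 were not whole, the only such case among the 10 isoforms, so some of its reads were divided with other genes. The near-identical gene Eno1b also had counts that were not whole, 16.8 for the control and 10.5 for the knockout. Eno3 had 96 and 101 counts and an FPKM ratio of 0.951 (0.712 to 1.27), an interval that includes both lower and higher levels. From counts scaled to the library totals, without length, its ratio was 1.01. The mean length of its 3 transcripts was 1494 bases in the control and 1585 in the knockout, which makes the FPKM ratio lower. Eno1 was 99.6% of enolase FPKM in the control and 99.7% in the knockout, and Eno3 was 0.336% (0.273 to 0.411) and 0.250% (0.204 to 0.304). The ratio of ratios for Eno3 to Eno1 was 0.789 (0.591 to 1.06), so a change of balance was not detectable at this depth. The neuronal Eno2 had 17 and 22 counts.

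Lactate dehydrogenase combined opposite differences of its subunits with an almost equal sum on deposited FPKM. Ldha, the subunit abundant in muscle, had 16875 and 19784 counts and a ratio of 1.13 (1.10 to 1.15). Ldhb, the subunit abundant in heart, had 9577 and 8133 counts and a ratio of 0.816 (0.792 to 0.841). Their summed level was 1862 FPKM (control) and 1856 FPKM (knockout), a ratio of 0.997. Within that sum the share of Ldha was 58.2% (57.6 to 58.8) in the control and 65.8% (65.2 to 66.3) in the knockout, and that of Ldhb 41.8% and 34.2%. Ldhb stood at 0.719 of the Ldha level in the control and at 0.521 in the knockout. The ratio of ratios from the counts was 0.724 (0.699 to 0.751). Unlike it, the near equality of the summed level depends on scaling. On deposited FPKM the log2 ratios of Ldha and Ldhb were 0.17 and -0.29. After both libraries were set to the same FPKM total they were 0.26 and -0.20. The testis form Ldhc was listed in neither library.

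**Figure D3:**
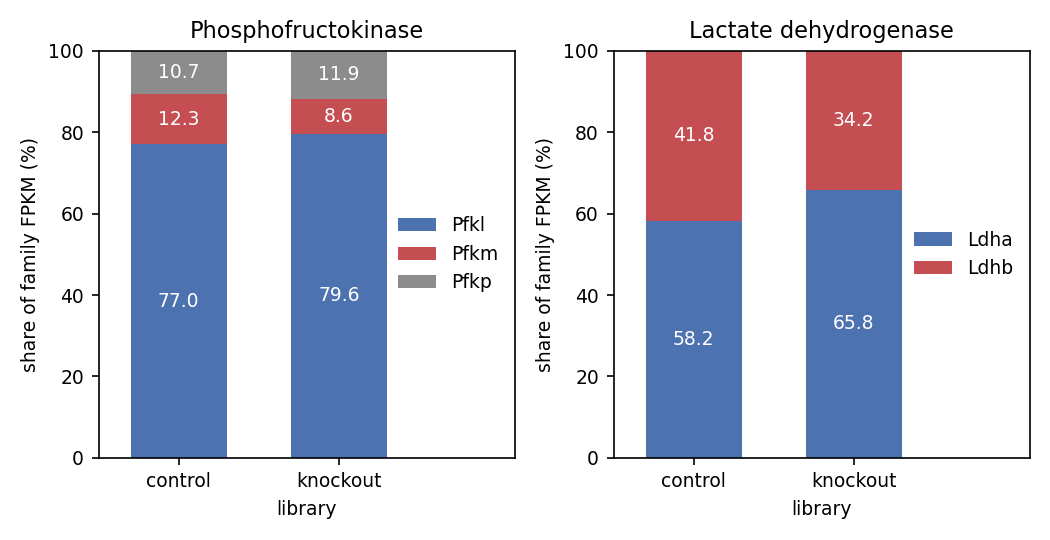
Stacked bars give each isoform's share of the summed FPKM of its family in percent, for phosphofructokinase on the left and lactate dehydrogenase on the right, with 1 bar per library and no error bars. Pfkm takes 12.3% in the control and 8.57% in the knockout, and Ldhb 41.8% and 34.2%.

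Of the 19 other glycolytic enzyme genes compared, 9 were tested, and 10 stayed below 1 FPKM in both libraries or were not listed. Of the 9 tested, 7 were higher in the knockout and 2 lower, and the median log2 ratio was 0.22. On the log2(FPKM + 1) scale 4 were past the smaller limit upward and 0 downward, against 12.2% and 13.4% of all tested genes. None passed 1.5-fold in either direction, against 4.63% upward and 3.69% downward. The low gene Hk3 was among the 4 and had a larger ratio of plain FPKM. Gapdh, an enzyme gene often used as a reference for other genes, was at 2611 FPKM (control) and 3330 FPKM (knockout), a ratio of 1.28 (1.26 to 1.29), close to those of Aldoa and Eno1. Gpi1, the isomerase that precedes phosphofructokinase, had a ratio of 1.26 (1.23 to 1.30), with counts that were not whole in either Gpi1 or Gapdh.

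Hk2, the hexokinase of insulin-responsive tissues, had a ratio of 1.26 (1.21 to 1.32), and the more widely expressed Hk1 a ratio of 1.15 (1.06 to 1.247). Hk3, a hexokinase of leukocytes, was at 0.87 and 1.76 FPKM from 24 and 54 counts, a ratio of 2.02 (1.23 to 3.42). Pkm, the pyruvate kinase, had 1.17 (1.15 to 1.19). Pgam1, the mutase between Pgk1 and enolase, had 1.02 (0.994 to 1.05). Adpgk, a kinase that uses ADP, had 0.797 (0.631 to 1.01) and Bpgm, which makes the red cell effector bisphosphoglycerate, 0.927 (0.788 to 1.09). Thus Aldoa, Gapdh, Eno1, Gpi1, Hk2 and Pfkp lay between 1.26 and 1.29, and Pgk1, Pgam1 and Tpi1 between 0.982 and 1.03.

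**Figure D4:**
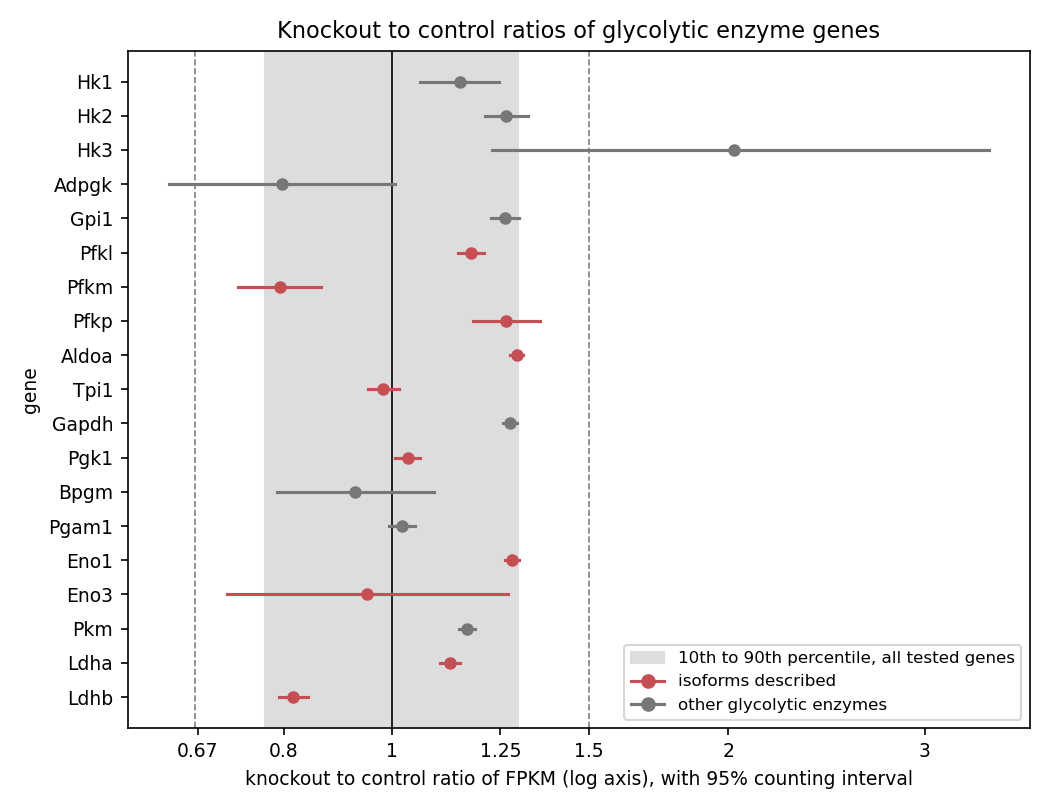
Points are knockout to control ratios of FPKM on a log axis, with 95% counting intervals as lines; red marks the isoforms described and grey the other glycolytic enzymes. The grey band is the 10th to 90th percentile of all tested genes on the FPKM + 1 scale (0.770 to 1.30), which holds the points of all 10 isoforms, and dashed lines mark 1.5-fold.

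Glucose and lactate carriers differed in both directions. Of 9 genes listed, 8 were tested, with 5 higher, 3 lower and a median log2 ratio of 0.09. The largest differences were in genes of low level: Emb, a chaperone of lactate carriers, at 0.8 and 2.05 FPKM with a ratio of 2.56 (1.51 to 4.53), Slc16a3, a lactate exporter, at 0.62 and 1.27 FPKM with 2.05 (1.06 to 4.17), and Slc2a1, the basal glucose transporter, at 2.91 and 4.21 FPKM with 1.45 (1.06 to 1.98). The more abundant genes of the list did not share this direction. Slc16a1 was lower, at 109 and 91.2 FPKM with a ratio of 0.836 (0.801 to 0.872). Slc2a4, at 122 and 125 FPKM, and Bsg, at 461 and 450 FPKM, differed little. The list summed to 703 FPKM (control) and 680 FPKM (knockout). Among 11 regulators of glycolytic genes, 5 were higher and 6 lower, with a median of -0.05. The more abundant genes of this list went both ways. Epas1, a HIF2 subunit, was at 113 and 102 FPKM with a ratio of 0.909 (0.876 to 0.944). Mlxipl, which encodes ChREBP, was at 71.8 and 65.1 FPKM with 0.907 (0.857 to 0.960). Egln1 was at 102 and 114 FPKM with 1.12 (1.07 to 1.17). The 3 with the largest differences were Myc, a growth-linked transcription factor, with 1.30 (1.01 to 1.68), Mlx, the partner of the glucose-sensing factor ChREBP, with 0.807 (0.6848 to 0.95003), and Hif1a, the oxygen-regulated subunit of HIF1, with 1.22 (1.09 to 1.36).

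Hypoxia-induced genes outside glycolysis were listed because HIF factors also act on several glycolytic genes. Of 15 genes 14 were tested, with 9 higher, 5 lower and a median of 0.25. Past 1.5-fold were 3 upward and 0 downward, against 4.63% and 3.69% of all tested genes. Past the smaller limit were 7 upward and 1 downward, against 12.2% and 13.4% of all tested genes. P4ha2 and P4ha1, subunits of collagen prolyl hydroxylase, were at 4.07 and 10.15 FPKM and at 5.82 and 10.04 FPKM. Their ratios were 2.49 (1.94 to 3.23) and 1.73 (1.46 to 2.04), and the vascular peptide gene Adm had 1.87 (1.23 to 2.87). The part of HIF factors in these differences was not tested. The more abundant Vegfa, which encodes the main angiogenic growth factor, had 126 and 99.5 FPKM and a ratio of 0.791 (0.754 to 0.829); it was the one gene of the list past the smaller limit downward. Summed over the list, the level was 621 FPKM (control) and 597 FPKM (knockout). A few abundant genes make up most of this sum, above all Bnip3 at 259 and 240 FPKM, so it says little about the other genes.

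Markers of other cell types differed between the libraries too. In bulk tissue fewer cells of a type and less RNA per cell cannot be told apart. Pfkm and Eno3 are abundant in skeletal muscle. Of the 15 muscle markers listed, 13 were below 1 FPKM in both libraries. Some muscle-type genes outside this list stood higher. Myl1 averaged 79.83 FPKM with a log2 ratio of -0.30, Des 33.55 FPKM with -0.52 and Myl4 8.41 FPKM with 0.40. The listed markers summed to 13.3 FPKM (control) and 14.5 FPKM (knockout), mostly from Mb at 9.16 and 10.4 FPKM and Acta1 at 1.38 and 2.71 FPKM. Mylpf and Tnni2 were at 0.74 and 0.68 FPKM in the control and 0.28 and 0.16 FPKM in the knockout library. Ckm and Myh7 were listed in neither library, Actn3 was at 0 in the control, and Myh1, Myh4 and Tnnt3 were at 0 in the knockout.

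All 8 leukocyte markers were higher in the knockout library, with a sum of 433 FPKM (control) and 631 FPKM (knockout). Lyz2 had a ratio of 1.59, Cd74 of 1.28, Cd68 of 1.97 and Csf1r of 1.58. All 6 fibroblast and preadipocyte markers were higher as well, with 308 and 484 FPKM in sum, among them Dpt with 2.22, Col3a1 with 1.51, Dcn with 1.15 and Col1a1 with 1.72. Of 6 endothelial markers 5 were lower, with 148 and 116 FPKM in sum, where Pecam1 had 0.939, Cdh5 0.804, Emcn 0.558 and Kdr 0.639. No marker of these 3 lists was at 0 in either library.

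Of 8 brown adipocyte markers 7 were lower, with 15589 and 11863 FPKM in sum. Cox8b had a ratio of 0.675, Ucp1 0.857 and Cidea 0.817, while Elovl3 had 1.65. Of the 6 markers of adipocytes in general 2 were higher and 4 lower, with 23985 and 22275 FPKM in sum; Fabp4 had 0.923, Pnpla2 0.839, Adipoq 1.02 and Lipe 1.07. Blood markers differed little, with 8294 and 8203 FPKM in sum; 2 of the 6 tested were higher and 4 lower, and Hbb-bs, Hba-a1, Hba-a2 and Hbb-b1 had ratios of 0.998, 0.947, 0.996 and 1.08. Of 4 epithelial markers only Krt14 was tested, at 15.6 and 6.61 FPKM; Krt8 and Krt18 were under 1 FPKM and Epcam was not listed. Leukocyte and fibroblast markers thus differed in the direction of Pfkl, Pfkp, Aldoa, Eno1 and Ldha, and most endothelial and brown adipocyte markers, though not Elovl3, in the direction of Ldhb and Pfkm. The part of cell composition in the values of the isoforms was not tested.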

How the data were processed

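Polyadenylated RNA of brown adipose tissue was sequenced in 2 libraries, 1 per genotype, per the labels' protocols, which do not mention strand. Per the file headers, the deposited tables hold expected counts, FPKM and transcript length by gene. RSEM and the mouse build mm9 are named in the submitters' processing notes; the aligner and versions are not given in the sources used here. A gene not listed was set to 0. The expected counts deposited were whole to within 0.05 for 94.0% and 94.1% of listed genes. FPKM is relative to the library, so abundant genes shift others. It summed to 606888 in the control and 571034 in the knockout.

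Entrez identifiers were turned into symbols with a RefSeq table (GRCm38.p6), which matched 16134 of 16174; mm9 coordinates were not used. The log2 ratio used a pseudocount of 1, which understates differences of low genes. Ratios in the text are of FPKM without pseudocount. Counts rounded to whole numbers gave their 95% intervals (Clopper-Pearson, conditional on the sum), and those of ratios of ratios are exact conditional intervals of the odds ratio (scipy 1.17.1). Reads copied by PCR are not independent molecules, so these intervals may be too narrow. Interval and fold code was tested on simulated data. The members and gene lists were chosen with earlier results of these data known. Named besides the members were Dnmt3b, Ucp1, each other glycolytic enzyme with at least 1 FPKM, the 4 most abundant genes of each cell type list and the 3 genes with the largest absolute log2 ratio of each other list (near-identical copies, carriers, gluconeogenesis, regulators, hypoxia-induced genes). Other genes, such as Aldoc, Eno2, Gpd1l, Vegfa, Epas1, Mlxipl, Egln1, Myl1, Des, Myl4 and muscle genes at 0, were named after their values were seen. One listed gene is not reported here. Alternatives covered scaling, unit, pseudocount, filter, fold and a trend with transcript length and GC content.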

Additional observations from a re-analysis of the deposited data

How the results depend on the processing

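No member reached 1.5-fold in either direction under any scaling, unit, pseudocount, filter or trend removal tried. Across these settings 1.17% to 7.53% of tested genes passed it upward and 0.928% to 6.25% downward. At the smaller limit of 0.32 (log2) there were 3 higher and 1 lower, against 12.2% and 13.4% of tested genes. The lower one, Pfkm, lay close to that limit, and the number past it downward was 0 after both libraries were set to the same FPKM total, with the median of tested genes set to 0, in CPM, with a pseudocount of 5 and among genes of at least 100 FPKM, which leaves Pfkm out. The number past it upward was 2 with a pseudocount of 5 and after either trend removal, where Pfkp had 0.3039, 0.2848 (length) and 0.2661 (length and GC content), and 2 among genes of at least 100 FPKM, which leaves Pfkp out. Shares of all tested genes past the smaller limit moved too. Upward they were 16.6% with equal FPKM totals, 5.23% with a pseudocount of 5 and 11.25% after the length trend. With GC content the upward share was 11.38%, and from 100 FPKM it was 6.61%. Downward they were 9.10% with equal FPKM totals, 11.7% with the median at 0 and 16.4% in CPM. With a pseudocount of 5 the downward share was 6.03%, and from 100 FPKM it was 12.4%. The median log2 ratio of the members was 0.1968 after the libraries were set to the same FPKM total, where all tested genes had 0.05. It was 0.1719 among genes averaging 10 FPKM or more, which leaves out Eno3, and 0.1719 among those of at least 100 FPKM, a filter added after seeing the data. Across the scaling, pseudocount and trend alternatives the log2 ratio ran from 0.37 to 0.46 for Aldoa, 0.19 to 0.32 for Pfkl, -0.34 to -0.24 for Pfkm, -0.29 to -0.20 for Ldhb, -0.03 to 0.06 for Tpi1 and -0.07 to 0.01 for Eno3, so of the 10 members only Tpi1 and Eno3 changed sign. Without length scaling, shares of counts were 78.75% and 80.51% for Pfkl in the control and knockout, 9.599% and 6.678% for Pfkm, 11.65% and 12.82% for Pfkp, 63.79% and 70.87% for Ldha and 36.21% and 29.13% for Ldhb; Pfkp then exceeded Pfkm in both libraries, as Pfkp has the longer transcript (3986 bases). Ratios of ratios from FPKM lay within the counting intervals of those from counts. With 1 library per genotype, the spread between mice is unknown.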

Other observations

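Glycerol-3-phosphate, the backbone of triglyceride, exchanges with the triose phosphates through glycerol-3-phosphate dehydrogenases. Gpd1, the cytosolic glycerol-3-phosphate dehydrogenase, was at 2955 FPKM (control) and 3566 FPKM (knockout), a ratio of 1.21 (1.20 to 1.22). Gpd2, its mitochondrial counterpart, had 189 and 227 FPKM and a ratio of 1.21 (1.17 to 1.24). The Gpd1-like gene Gpd1l had 13.6 and 12.8 FPKM and a ratio of 0.939 (0.834 to 1.06), an interval that includes 1. Pck2, the mitochondrial phosphoenolpyruvate carboxykinase, had 8.47 and 6.28 FPKM and a ratio of 0.741 (0.617 to 0.890). Of the 9 genes of gluconeogenesis and glycerol-3-phosphate metabolism listed, 8 were tested. Of these 5 were higher and 3 lower, none was past 1.5-fold, and the median log2 ratio was 0.03.

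Of the 5 genes listed as near-identical copies of the isoforms, Eno1b was the one tested, at 1.0 FPKM (control) and 0.6 FPKM (knockout). Ldhal6b had 7 and 6 counts, and the other 3 were not listed in either library.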
